A study of Mus musculus with 2 samples.

Results

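miR-132 and miR-212 are made from neighbouring hairpins of the same transcript. Among the 696 mouse miRNAs on the arrays, these 2 members, listed as mmu-miR-132 and mmu-miR-212, were taken by name. The comparison was of the 3rd mammary gland, called the gland, with the flank tissue between that gland and the 4th (the inter mammary gland region, called the flank), from untreated ICR mouse embryos at E13.5. At embryonic day 13.5 a mammary gland is still a bud of epithelium in a condensed mesenchyme. Per region, 1 Agilent 1-colour miRNA array received 100 ng of Cy3-labelled total RNA. The sources used here do not say how many embryos went into a sample. Since neither region has a replicate array, no test was run. Errors are the spread over the spots of an array, which is technical only, and having so few arrays limits how precise each value is.

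A miRNA is a short RNA that lowers the output of messenger RNAs to which its seed, bases 2 to 8, can pair. Transcription of the miR-132 and miR-212 precursor is induced in neurons by CREB, a transcription factor activated by cAMP and calcium signals. In the mammary gland the pair has been studied in the stroma, the connective tissue around the epithelium, and studies of mice lacking both miRNAs have differed on whether the ducts need them to grow out.

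The mature strands are shown because their shared seed is what makes the members a family. Both names matched an entry of RefSeq, with coordinates of its build GRCm38.p6. The array files give no probe sequences, and under the older naming that they use, mmu-miR-132 and mmu-miR-212 stand for the strands now called 3p. The 5p strands are not listed on the arrays under any name searched (mmu-miR-132*, mmu-miR-212*, mmu-miR-132-5p and mmu-miR-212-5p). Capitals mark the seed.
mmu-miR-132-3p: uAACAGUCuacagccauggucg
mmu-miR-212-3p: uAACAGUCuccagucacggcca

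The strands were identical at 17 of 22 positions, including bases 1 to 9. Counted from base 1 at the 5′ end, with the base of miR-132-3p first, they differed by A10C, C14U, U17C, U20C and G22A. All of the differences therefore lay outside the seed, from base 10 on. Of 1679 mature mouse miRNA names in the RefSeq table, 2 had the seed AACAGUC, and these were the members. No other miRNA of the table had it.

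The hairpins are shown for the place of the mature strand, in capitals, in each precursor. Both are on the plus strand of chromosome 11, Mir212 at chr11:75173388-75173478 and Mir132 at chr11:75173682-75173747, with 203 bases between them. Each is annotated as a miRNA gene. The array was designed on another build, so these positions describe the genes and not the probes.
Mir132: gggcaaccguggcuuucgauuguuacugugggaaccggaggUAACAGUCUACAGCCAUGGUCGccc
Mir212: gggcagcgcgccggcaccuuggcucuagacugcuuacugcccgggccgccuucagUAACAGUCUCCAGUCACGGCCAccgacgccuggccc

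Each miRNA was read by 2 probes, and each probe was printed as 10 spots at the same places on both arrays. Values are the background-subtracted intensity of a spot in arbitrary units. Spots that the software marked as outliers were left out. On the array of the gland the 432 negative control spots, outliers left out, averaged 3.81 ± 5.28 (SD) and reached 17.3. On that of the flank the 428 negative control spots averaged 2.23 ± 5.07 (SD) and reached 19.2. A spot was called well above background by the software at about the same signal on both arrays, since the dimmest such miRNA spot had 28.9 in the gland and 27.9 in the flank. The share of miRNA spots well above background was 38.1% on each array, and 0 miRNA spots were saturated.

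miR-212 was measured clearly in both regions and at nearly the same level. For its probe 1 the spots had a median of 128 (lowest 115, highest 144) in the gland and a median of 124 (lowest 107, highest 140) in the flank. The spots of the regions covered almost the same range. The means were 129 ± 9.82 (SD over 10 spots) and 123 ± 10.3 (SD over 10 spots).

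Probe 2 of miR-212 was brighter on both arrays. The median spot was 419 (lowest 390, highest 465) in the gland and 379 (lowest 329, highest 421) in the flank. The means were 420 ± 23.3 (SD over 9 spots) and 374 ± 30.1 (SD over 10 spots). Before any scaling between the arrays the gland was thus a little higher at both probes, with quotients of 1.046 and 1.12. Every spot used was well above background, 19 of 19 in the gland and 20 of 20 in the flank.

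miR-132 was dim in both regions and dimmer in the flank. For its probe 1 the median spot was 36.3 (lowest 30.8, highest 43.7) in the gland and 23.5 (lowest 16.9, highest 34.1) in the flank. The ranges overlapped at their ends. The means were 36.8 ± 4.17 (SD over 7 spots) and 23.8 ± 5.06 (SD over 10 spots). In the gland 7 of the 7 spots used were well above background, against 2 of 10 in the flank. Left out as outliers were 3 spots in the gland and 0 in the flank.

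At probe 2 the median spot of miR-132 was 20.1 (lowest 12.5, highest 28.5) in the gland. In the flank it was 13.1 (lowest 9.27, highest 18.2). These signals lay close to the negative controls, and 0 spots were well above background on either array. The means were 20.3 ± 4.67 (SD over 9 spots) and 13.2 ± 2.62 (SD over 9 spots). Brighter than every negative control spot of their own array were 7 of 9 spots in the gland and 0 of 9 in the flank. For probe 1 these numbers were 7 of 7 and 8 of 10.

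**Figure D1:**
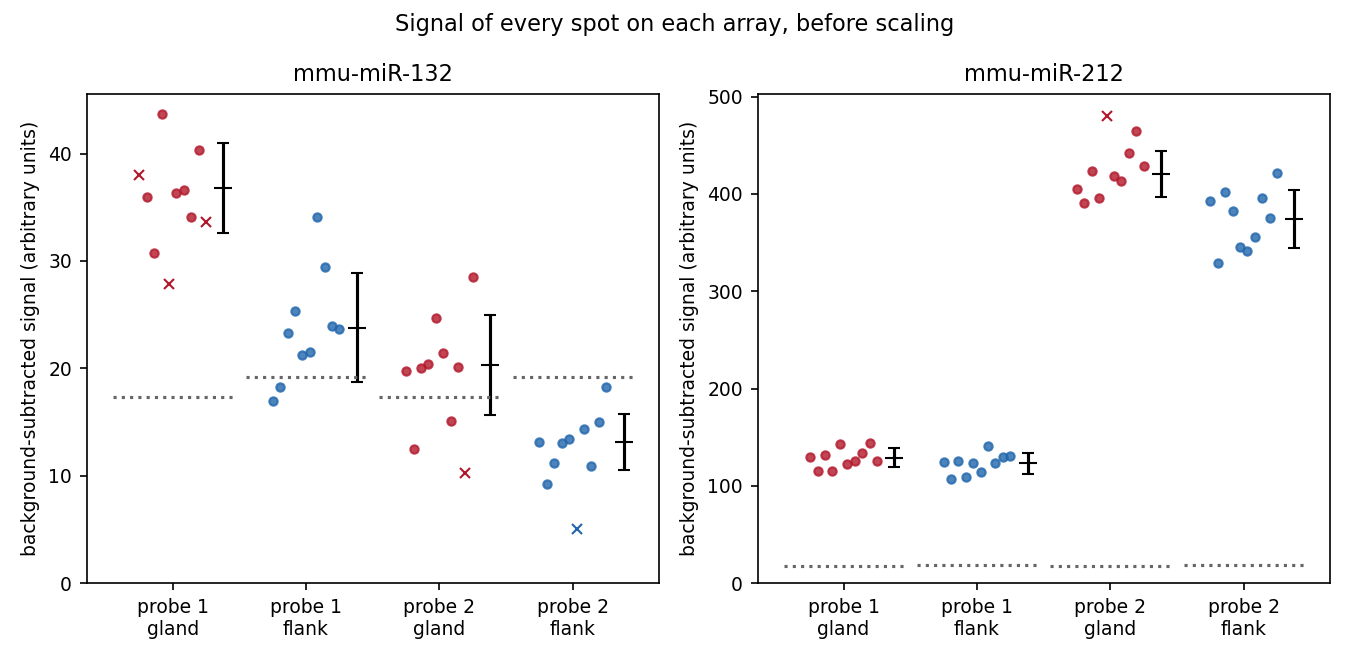
Background-subtracted signal, before scaling, of every spot of miR-132 (left) and miR-212 (right) by probe, for the gland (red) and the flank (blue), with outlier spots as crosses, the mean ± SD of the other spots in black and the brightest negative control spot of each array as a dotted line. The miR-212 spots sit far above the dotted lines on both arrays, while the miR-132 spots of the flank reach 34.1 at probe 1 and 18.2 at probe 2.

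To compare the regions, the signals of each array were scaled by a 75th percentile, taken over the probes that both arrays detected (786 for the gland and 719 for the flank), and averaged over the probes of a miRNA. Detection of a probe required over 50% of its spots to be well above background, and detection of a miRNA required this of at least 1 probe. The scaled signal of miR-212 had a quotient, gland over flank, of 1.009 ± 0.0256 (SE over spots), a log2 ratio of 0.01 ± 0.037. By probe the quotients were 0.956 ± 0.0343 and 1.027 ± 0.0323. miR-212 was detected on both arrays and did not reach the threshold of 1.5-fold in either direction. In bulk RNA, fewer cells that make a miRNA and less of it per cell cannot be told apart.

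miR-132 had a quotient of 1.41 ± 0.0887 (SE over spots), or 0.50 ± 0.091 on the log2 scale. By probe the quotient was 1.414 ± 0.113 for probe 1, which was not detected in the flank, and 1.408 ± 0.143 for probe 2, which was detected on neither array. Without scaling the quotient was 1.546, past 1.5. By this rule miR-132 was detected in the gland through probe 1 and was not detected in the flank. The quotient of the dimmer array is therefore no measured fold. Against the lowest detected probe of the flank, which had 27.1 before scaling, probe 1 of the gland had a quotient of 1.24. This value has no error, and it could be given only because probe 1 was detected in the gland. With both probes averaged the quotient against this floor was 0.964, so the miRNA as a whole has no lower bound above 1.

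Spot by spot, miR-132 was brighter in the gland at most places of the array. These places share 1 RNA sample per region, so they are not replicates and their number gives no added support. Of the 15 places with no outlier on either array, 13 (86.7%) had the higher scaled signal in the gland, 6 of 7 at probe 1 and 7 of 8 at probe 2. The median difference, gland minus flank in units of the flank array, was 7.15, with a range from -0.696 to 14.6. By position, 6 of 6 places with the lower row numbers and 7 of 9 with the higher ones were brighter in the gland. Without scaling all 15 were, against 61.3% of negative control places and 70.5% of the places of all miRNAs detected on both arrays.

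The negative controls show how far spots at the same place differed with no miRNA to bind. Over 426 pairs of negative control spots, 59.2% were brighter in the gland, with a median difference of 1.52, and the middle 95% of the differences lay from -11.1 to 12.3. Over 7401 pairs of spots of the 384 miRNAs detected on neither array, 57.4% were brighter in the gland, with a median difference of 1.17. The median of miR-132 was larger than both medians, and at 3 of its 15 places the difference was above 12.3. The negative controls were thus slightly brighter on the gland array, as miR-132 was. With the mean of the negative control spots subtracted on each array the quotient of miR-132 was 1.39, against 1.41 without this step.

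For miR-212 the spot pairs went both ways. Of 19 places, 7 (36.8%) were brighter in the gland after scaling, 2 of 10 at probe 1 and 5 of 9 at probe 2, and the median difference was -2.54, with a range from -29.0 to 49.4. The direction depended on the scaling, since without it 17 of 19 places (89.5%) were brighter in the gland. Over the 5420 pairs of spots of all miRNAs detected on both arrays the share brighter in the gland moved likewise, from 56.9% with the scaling to 70.5% without it.

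**Figure D2:**
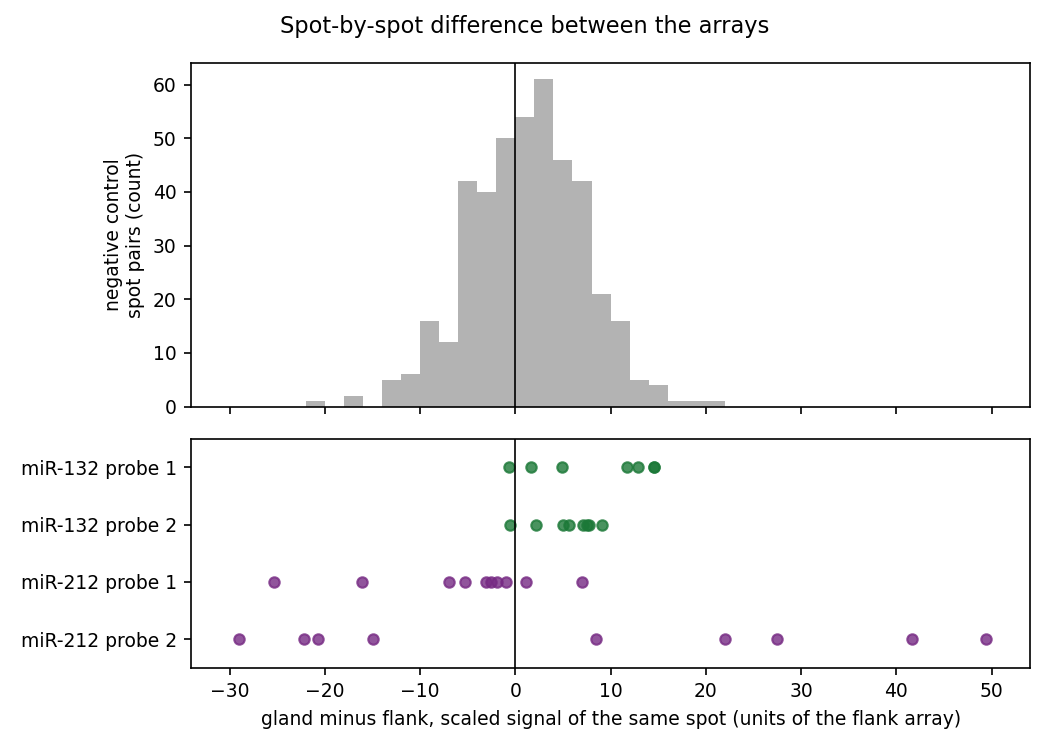
Difference in scaled signal between the arrays at the same spot, gland minus flank in units of the flank array, as counts of 426 negative control pairs (top) and as 1 point per place for each probe of miR-132 (green) and miR-212 (purple), with outliers left out. Of the 15 miR-132 points 13 lie above 0 and most fall inside the spread of the negative controls, and the miR-212 points lie on both sides of 0.

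Among the 284 miRNAs detected on both arrays the median log2 ratio was 0.05, and the middle of the range, from the 25th to the 75th percentile, ran from -0.14 to 0.22. Of them 6 (2.11%) were at least 1.5-fold higher in the gland and 26 (9.15%) at least 1.5-fold lower. Without scaling these numbers were 15 and 23, and with the 75th percentile over all probes 19 and 22. Of the members 0 of 2 was called by this rule, miR-212 because its ratio was near 1 and miR-132 because it was not detected on both arrays. The quotient of miR-132, 1.41, was also below 1.5 with this scaling. miR-212 sat near the middle of the 284, with 160 ratios above its own and 123 below, and its log2 ratio was -0.03 relative to their median. miR-132 was not ranked among them. Of the 192 miRNAs detected on neither array with a signal above 0 on both, 92 (47.9%) had a quotient above the 1.41 of miR-132. Of the 12 miRNAs detected in the gland only, miR-132 among them, 8 had a quotient above it. These quotients too are no measured folds.

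**Figure D3:**
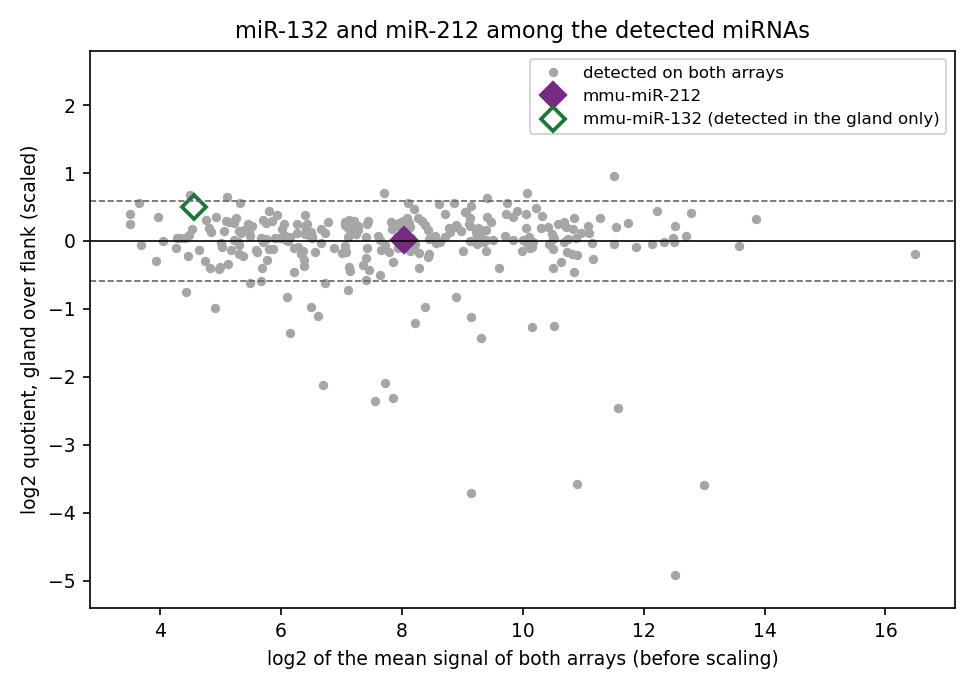
Log2 quotient of scaled signals, gland over flank, against the log2 of the mean signal of both arrays for the 284 miRNAs detected on both arrays (grey), with miR-212 (filled purple) and miR-132 (open green, detected in the gland only). Dashed lines mark 1.5-fold, which neither member reaches with this scaling, and miR-132 lies at 0.50 near the dim end, a value that is no measured ratio since its flank signal was not detected.

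The miRNAs whose ratio was nearest to that of miR-212, over the 2 arrays, were let-7b, miR-376a* and miR-495, whose log2 ratios differed from it by 0.000161, 0.000246 and 0.00064. Their signals in the gland and the flank were 620 and 561 for let-7b, 38.9 and 35.3 for miR-376a*, and 701 and 635 for miR-495. With 1 ratio per miRNA such closeness is a description only. No miRNA was matched to miR-132, which has no ratio by the rule on detection.

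The deposited table gave a larger quotient for miR-132 than its spots did. The authors' software, Feature Extraction, wrote a total signal per miRNA. This total was the sum of the probe totals that exceeded 3 times their own error, or 0.1 where none did. All 696 miRNAs matched this rule within 0.1% on both arrays. For miR-132 it was 37.8 (error 6.09) in the gland and 15.4 (error 3.94) in the flank, a quotient of 2.45 before scaling. The software called miR-132 detected in both. The total of the gland summed 2 probes, 24.4 (error 4.54) for probe 1 and 13.4 (error 4.06) for probe 2. The total of the flank held probe 1 only, because the 8.53 (error 3.72) of probe 2 was 2.29 times its error and was left out. With both probes summed on both arrays, 37.8 and 23.9, the quotient was 1.58 before scaling and 1.51 after it.

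For miR-212 the totals summed 2 probes on each array, 364 (error 29.6) in the gland and 322 (error 26.1) in the flank. Their quotient was 1.13 before scaling and 1.08 after it. Among the 323 miRNAs that the software called detected on both arrays, 26 (8.05%) had totals over different numbers of probes. In 16 of them, miR-132 included, the gland had more probes counted, and in 10 the flank had.

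**Figure D4:**
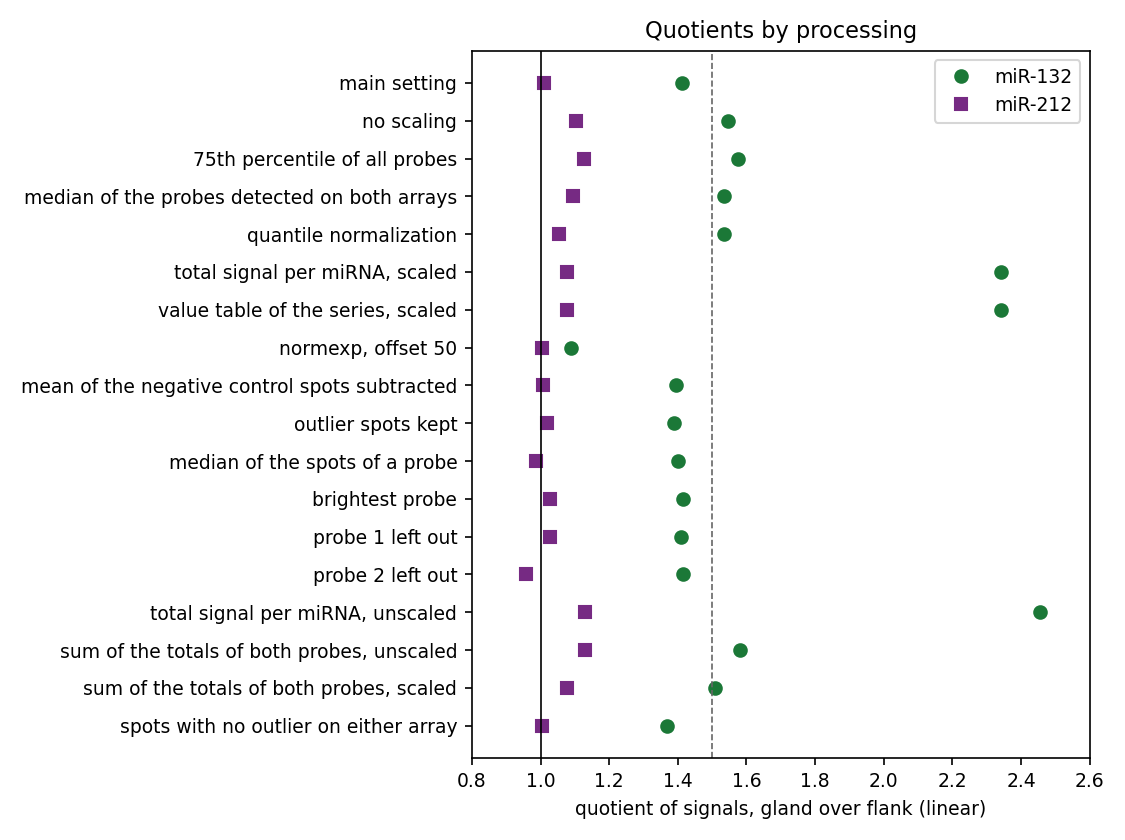
Quotient of signals, gland over flank, on a linear axis for miR-132 (green circles) and miR-212 (purple squares) under each way of processing, with lines at 1 and at 1.5 (dashed). miR-132 ranges from 1.09 after normexp to 2.45 with the unscaled totals, and miR-212 from 0.956 to 1.13.

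miRNAs that mark tissues were set beside the members. The 4 miRNAs of the muscle list (miR-1, miR-133a, miR-133b and miR-206), which skeletal muscle makes, were detected on both arrays. Of them 4 of 4 were at least 1.5-fold lower in the gland, with log2 ratios from -1.43 to -1.12. Their summed signal before scaling was 1646 in the gland and 3610 in the flank, and the quotient of the scaled sums was 0.417. Of the epithelial list, 7 of 7 were detected in both regions and 0 passed 1.5-fold. Its log2 ratios had a median of 0.34, the highest being miR-200a (0.51) and miR-429 (0.40) of the miR-200 family, which maintains epithelial character, and the lowest miR-205 (-0.02) and miR-203 (-0.31) of the skin. Epithelial miRNAs were thus measured in both samples. Less muscle signal in the gland moved with the higher miR-132 quotient, and its part in that quotient was not tested.

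Of the stromal list, 10 of 11 names were on the arrays. 7 were detected in both regions, 0 of them passed 1.5-fold, and their median log2 ratio was 0.22. The highest were miR-199a-3p (0.32) and miR-214 (0.26), made from the same mesenchymal transcript, and the lowest miR-22 (0.07) and miR-29c (-0.02). miR-29a was detected in the flank only. In 6 of the 7 the ratio was above that of miR-212. The summed signal of the list before scaling, with the undetected members included, was 35422 in the gland and 27441 in the flank. The quotient of the scaled sums was 1.18.

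Of the neural list, set beside the members because they are best known from neurons, 4 of 9 were detected in both regions. The defining neuronal miRNA, miR-124, was not detected, with mean signals of 3.15 in the gland and -0.189 in the flank. Of the 4 detected, miR-134 passed 1.5-fold and was lower in the gland (-1.10), miR-128 (-0.57), miR-219 (-0.34) and miR-138 (-0.22) did not pass, and 0 of the 4 ratios were above that of miR-212. The median of these 4 was -0.46, against 0.05 over all 284. The other 5, miR-124 among them, were detected on neither array and have no measured ratio. Before scaling 5 of 5 had the brighter signal in the gland, such as miR-137 (22.6 and 9.73) and miR-9 (15.6 and 6.92). For miR-9* the signals were 5.52 and 4.36. Of single spot pairs over all miRNAs detected on neither array, 58.1% were also brighter in the gland before scaling. The negative controls averaged more on the gland array as well (3.81 against 2.23). The 5 of 5 is therefore not read as a result about the list. The summed signal of the 9 before scaling was 324 in the gland and 408 in the flank, and the quotient of the scaled sums was 0.727.

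Of the blood list 5 of 6 were detected in both regions, and 0 of these passed 1.5-fold. Their median log2 ratio was -0.06, from -0.39 for miR-486 to 0.44 for miR-451, the latter of red blood cells. The summed blood signal before scaling was 6238 in the gland and 4351 in the flank, of which miR-451 gave 5682 and 3822. The quotient of the scaled sums was 1.31. Both strands of miR-126, from the endothelium, were detected in both regions, at 0.05 for miR-126-3p and 0.21 for miR-126-5p. Their summed signals before scaling were 2160 and 1896, and the quotient of the scaled sums was 1.04.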

How the data were processed

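The authors scanned the arrays, and the deposited files, per the file headers, hold the output of Feature Extraction 10.7.3.1: a background-subtracted intensity for each spot, not normalized between arrays, and a total intensity per miRNA, with 0.1 standing in where none was called. The deposited table equals these totals. GeneSpring GX is the tool given in the methods for normalization, without a signal column or threshold.

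Regions were assigned from the tissue labels. Of the miRNA spots, the software marked 1.67% as outliers on the gland array and 2.51% on the flank array. Steps and the 1.5-fold threshold are given with the results, and errors were propagated from the spot SDs. The members, lists and alternatives were chosen with earlier results of these data known. The rule for named miRNAs was the members, their other strands and seed relatives, the 3 nearest ratios of a member detected on both arrays, and up to 4 of each of 6 tissue lists. The steps were tested on simulated spots with 2-fold changes, scored only for miRNAs detected on both arrays. A miRNA detected in the gland only, as miR-132 was, is not covered by that test. The arrays read miRNAs only, so targets were not analysed here. Python 3.11.15, numpy 2.4.6, pandas 2.3.3, scipy 1.17.1, matplotlib 3.10.9, R 4.3.3 and limma 3.58.1 (normexp, offset 50) were used.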

Additional observations from a re-analysis of the deposited data

How the results depend on the processing

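No paired analysis was possible because there is a lone array for each region. The quotient of miR-132, 1.41 in the main setting, was above 1 under all 17 alternatives, and 7 of them moved it by less than its error over spots. All 17 use a flank signal that the main rule did not call detected, and against the detection floor the quotient was 0.964. Taking the brightest probe and leaving out probe 2 are the same step for miR-132. Unscaled it was 1.546. Scaled by the 75th percentile over all probes it was 1.58, by the median over probes detected on both arrays 1.533, and by quantile normalization 1.534. Scaled totals and the deposited table, scaled, gave 2.34, and unscaled totals 2.45, where different numbers of probes were counted. With both probe totals summed it was 1.58 unscaled and 1.51 scaled. After normexp it was 1.09. That setting started from the median signal and local background of each spot and added an offset, which draws quotients toward 1. The software's own call put miR-132 on 2 arrays in place of 1.

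The quotient of miR-212, 1.009, was above 1 under 15 of 17 alternatives. It was 1.10 unscaled, 1.13 by the 75th percentile over all probes, 1.096 by the median over detected probes, 1.054 by quantile normalization, 1.08 with the scaled totals, the deposited table and the scaled sum of probe totals, 1.13 with the unscaled totals or sums, and 0.956 with probe 2 left out. It was also under 1 with the median of the spots (0.986). It passed 1.5-fold under none of the 17. The share of spots brighter in the gland was 100% for miR-132 and 89.5% for miR-212 both unscaled and by the 75th percentile over all probes. Over the spots of all miRNAs detected on both arrays it was 70.5% and 72.8% in these settings. Over the negative control spots it was 61.3% and 61.5%.

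The median log2 ratio of the 284 miRNAs was 0.05 in the main setting, 0.18 unscaled and 0.21 by the 75th percentile over all probes. The count of miRNAs higher in the gland by 1.5-fold or more, 6, was 15 unscaled and by the median over detected probes, 19 by the 75th percentile over all probes, 14 after quantile normalization, with the scaled totals and with the deposited table, 2 after normexp, 13 with the software's call and 0 at 2-fold. The number lower, 26, was 16 at 2-fold. The number detected on both arrays stayed within 213 to 323. Why the values moved between settings was not tested. 4 of the 17 alternatives per member were added after the data were seen: the unscaled totals, the sums of probe totals (unscaled and scaled) and the spots clean on both arrays. Signal over background limits miR-132, and the array number limits both.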
